A study of Mus musculus with 40 samples.

Results

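Clustered histone genes were followed in the nucleus accumbens, a ventral striatal region that receives dopamine input, of 40 C57BL/6J mice. The genes were those whose symbol begins with Hist1h, Hist2h, Hist3h or Hist4h, which name 4 gene clusters. The table listed 68 of them among 23322 gene names, and the 40 that were above 0 in at least 5 of the 40 libraries are described here. Hist3h2ba and Hist1h4j drew attention to the family because both stood near the top of contrasts of cocaine or estradiol in these same libraries, so the family was picked from measured values of those contrasts, and these 2 genes are given there as a description. Counts of genes at an unadjusted p leave them out and run over the other 29 tested genes. Just inside the limit stood Hist1h3a and Hist1h1t, above 0 in 5 libraries, and just outside it stood Hist1h3g and Hist1h2ab, above 0 in 4.

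The 8 groups held 5 mice each, with 1 library per mouse. They were intact males given saline, intact males given cocaine, intact females given saline and intact females given cocaine. The other groups were ovariectomized females with placebo given saline, ovariectomized females with placebo given cocaine, ovariectomized females with estradiol given saline and ovariectomized females with estradiol given cocaine, called placebo and estradiol females below. Cocaine mice received 20 mg/kg daily from day 2 to day 6 and 10 mg/kg on the days before and after, 1 and 7, all mice had been handled for 3 days before, and tissue was taken after withdrawal from the drug. The labels give no ages, no estradiol dose and no length of withdrawal, and while all libraries were sequenced in 1 lane, nothing in them says whether intact mice (numbers 61 to 80) and ovariectomized mice (numbers 121 to 140) were treated and their tissue taken at separate times, so surgery and any such difference cannot be told apart. The study's title concerns the stronger response of females to cocaine.

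Histones are the proteins that DNA is wound on. H2A, H2B, H3 and H4 form the core of the nucleosome, and H1, the linker histone, binds where DNA enters and leaves it. The clustered genes supply histones mainly while a cell copies its DNA. Their messenger RNAs are known for ending in a short stem-loop in place of a poly(A) tail, and polyadenylated forms of some of them are known from cells that no longer divide. Variant histones such as H3.3 come from genes elsewhere in the genome and are made throughout the cell's life. Most cells of the adult accumbens, neurons above all, do not divide.

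The stem-loops are shown because they mark a transcript of the replication type. A loop was searched for in the 120 bases after the stop codon of the longest annotated coding transcript in mm10 (GENCODE M21), as 6 paired bases beginning GG and ending in T, then 4 loop bases beginning T, then the exact reverse complement of the 6. It was found in 29 of the 32 kept genes that had either a match or an annotation covering the whole window. Some of these matches lie in annotations that end before 120 bases. Among 19347 other genes, all with the whole window, 7 had it (0.0362%), so the shares do not rest on the same basis. Capitals below mark the paired bases and the loop, written as the DNA of the coding strand, 5′ to 3′.
Hist3h2ba: caaaGGCTCTTTTCAGAGCCacct
Hist3h2a: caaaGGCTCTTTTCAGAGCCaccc
Hist1h1c: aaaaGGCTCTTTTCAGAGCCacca
Hist2h3c1: caaaGGCTCTTTTCAGAGCCacca
Hist1h4h: caaaGGCCCTTTTCAGGGCCgccc
Hist1h4i: taaaGGCCCTTTTTAGGGCCacca
Hist1h4j: taaaGGTCCTTTTCAGGACCacca
The H2A, H2B, H1 and H3 genes shown share 1 stem, Hist1h4h and Hist1h4i share another, and Hist1h4j has its own. Of the 4 highest genes, Hist1h2bc had no match in the window of its 2-exon transcript, and neither had Hist2h2be, the fifth highest.

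Several of the same transcripts also carried a poly(A) signal, either AATAAA or its commonest variant form ATTAAA, near the annotated end, searched on the transcript strand. It lay in the last 40 bases of 8 of the 11 genes among the 12 highest with enough annotation. Among the other 28 kept genes it lay in 7 of 22, and over 20607 other genes it lay in 73.4%. Annotated transcripts of the 12 highest had a median length of 1358 bases against 662.5 bases for the other kept genes. The signal is in capitals in these windows near the transcript end.
Hist3h2ba: cataatggtattAATAAAtttggttcaatt
Hist3h2a: aggtatatgcccAATAAAataagagtacgt
Hist1h1c: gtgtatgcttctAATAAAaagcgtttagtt
Hist2h2be: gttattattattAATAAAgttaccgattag
Hist1h4h: ccacattttcttATTAAAagagcgaacatg
In Hist3h2ba the stem-loop ends 169 bases before the annotated transcript end, and in Hist3h2a it ends 1643 bases before it. The listed levels of these 2 genes therefore belong to gene models that hold both kinds of end, and which end the measured RNA had was not tested. The labels name AmpliSeq Library PLUS, a kit for libraries of amplified target pieces, and the primer panel, and with it the piece of each transcript that was read, is not given in the sources used here.

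Values are in TPM (transcripts per 1000000), a scale corrected for transcript length on which each library sums to 1000000. Levels between genes can be set side by side on it only as far as the authors' gene lengths hold, and whether a correction for length suits amplified pieces was not tested. Of the 40 genes, 5 had a mean of at least 10 TPM, 16 lay from 1 to under 10 TPM, and 19 lay under 1 TPM. Only 10 of the 68 listed genes were above 0 in all 40 libraries and 15 were at 0 in every one. The summed level of the 68 genes averaged 422 TPM ± 112 (SD, n = 40), and 4 genes held 81.2% of it.

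**Figure D1:**
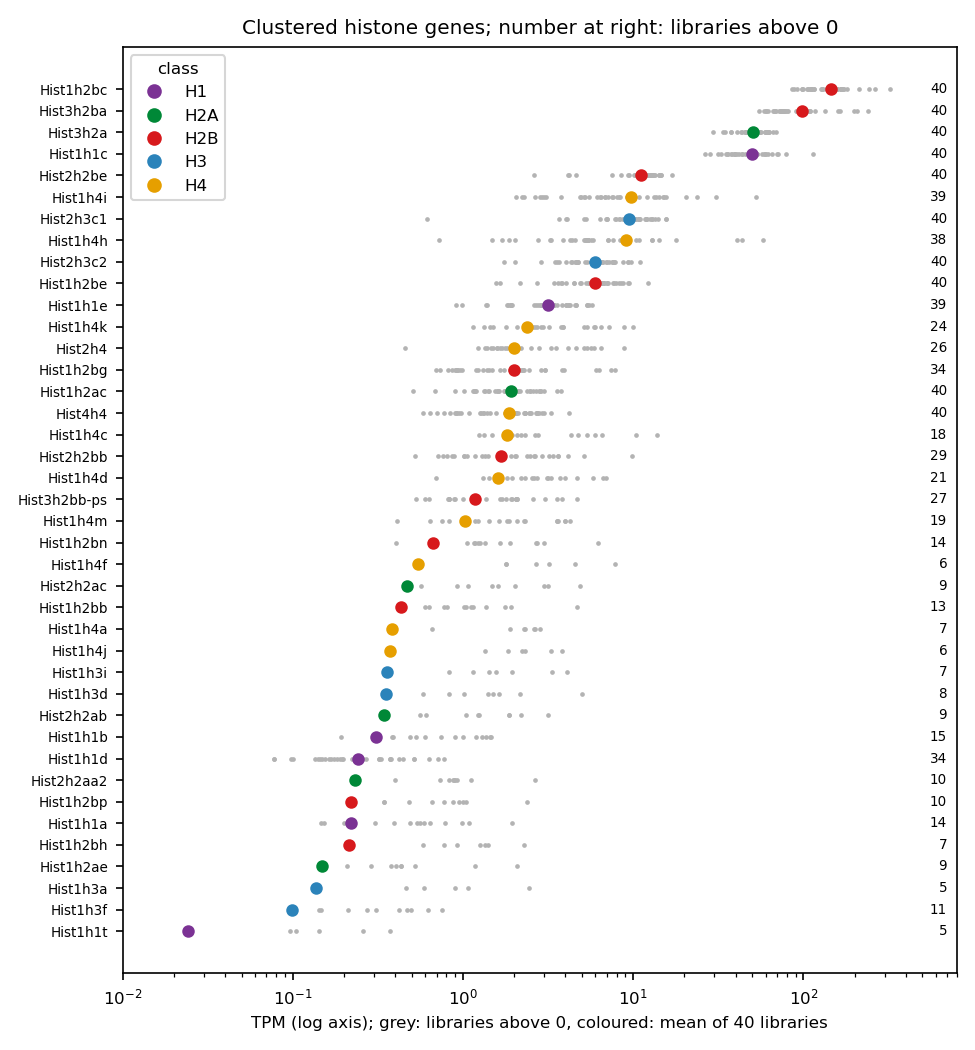
Level of each of the 40 genes on a log TPM axis, with grey points for the libraries above 0, a coloured point for the mean of all 40 libraries and, at the right, the number of libraries above 0. Hist1h2bc, Hist3h2ba, Hist3h2a and Hist1h1c stand apart from the rest, and 19 genes have a mean under 1 TPM.

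H2B was the class with the highest summed level. Its genes held 62.6% of the sum, against 13.4% for H2A, 12.9% for H1, 6.82% for H4 and 4.13% for H3. The core proteins are used in equal number in a nucleosome, so these shares show how unevenly the listed clustered transcripts were spread over the classes. By cluster, Hist1 on chromosome 13 held 55.8%, Hist3 on chromosome 11 held 35.6%, Hist2 on chromosome 3 held 7.94% and Hist4, 1 gene on chromosome 6, held 0.490%.

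Hist1h2bc, an H2B gene at chr13:23684199-23692908 on the plus strand, was the highest, with 146 TPM ± 49.2 (SD, n = 40). Hist3h2ba, the H2B gene of the Hist3 cluster at chr11:58948920-58949533 on the plus strand, followed with 97.6 TPM ± 42.3. Each of these H2B genes was higher than any other clustered gene. Hist3h2a, the H2A gene that starts on the same strand 5765 bases downstream of the start of Hist3h2ba, had 50.8 TPM ± 9.04. Hist1h1c, a linker histone gene at chr13:23738808-23740367, had 49.8 TPM ± 15.9. The means of Hist3h2a and Hist1h1c differ by far less than either SD, so their order is not settled.

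Below these 4 genes the level fell steeply. Hist2h2be, an H2B gene, had 11.1 TPM ± 2.99, Hist1h4i had 9.66 TPM ± 9.46 and Hist2h3c1 had 9.39 TPM ± 3.29, so neighbours in this order lie within their spread. Among the highest genes of the remaining classes, Hist1h2ac (H2A) had a mean of 1.91 TPM and Hist2h4 (H4) one of 2.00 TPM. Hist4h4 (H4) had 1.86 TPM, Hist2h2ac (H2A) had 0.468 TPM and Hist1h3i, the highest H3 gene of the Hist1 cluster, had 0.359 TPM. The H3 of the clusters thus came mostly from Hist2h3c1 and Hist2h3c2, whose mean was 5.95 TPM ± 2.08.

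Near-identical copies limit how a read can be placed. Of the 40 genes, 31 share a run of at least 75 bases with another clustered gene, so their separate values are uncertain wherever the authors' counting split or dropped shared reads. Hist1h2bc shares a run of 305 bases with Hist1h2bg, and Hist1h4j a run of 227 bases with Hist1h4h. Hist2h3c1 and Hist2h3c2 share a run of 666 bases, so how the H3 level divides between these genes is uncertain. Among the 12 highest genes the longest shared run was shortest for Hist3h2ba and Hist2h2be, at 47 bases, which they share with each other. Hist1h2bc also begins 251 bases from Hist1h2ac on the other strand, and Hist3h2a 173 bases from the pseudogene Hist3h2bb-ps. Whether the counting used strand is not given in the sources used here. Shared runs were sought only among genes of the same class. The annotated models of Hist1h2be (chr13:23583670-23621124) and Hist1h1e (chr13:23620629-23622558) overlap on the minus strand, and how reads there were counted is not given either.

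The scale of the sum can be set against other histone genes from lists chosen for this family. The 14 variant histone genes outside the clusters summed to 1211 to 2429 TPM per library, above the clustered genes' range of 309.6 to 867 TPM. H3f3a, which encodes H3.3, had a mean of 626 TPM, H2afz, which encodes H2A.Z, one of 445 TPM, H3f3b, the second H3.3 gene, one of 269.99 TPM and H1f0, a linker histone of non-dividing cells, one of 88.3 TPM. The 25 S phase and proliferation genes summed to 89.0 to 283 TPM per library. Pcna, the sliding clamp of DNA polymerase, which also serves in DNA repair, had the highest mean at 91.5 TPM, followed by Mcm7, a subunit of the replicative helicase, at 14.7 TPM. Mki67, a marker of cycling cells, had a mean of 1.08 TPM and Top2a, the topoisomerase of dividing cells, one of 2.04 TPM. Slbp, which encodes the protein that binds the histone stem-loop, had a mean of 29.5 TPM. Dcx, a marker of migrating young neurons, was above 0 in all 40 libraries, with a mean of 13.8 TPM.

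Facts of the whole table that touch these genes are brief. The striatal markers Drd1a and Drd2 were above 0 in all 40 libraries, with means of 141 and 118 TPM. The library labelled male cocaine 69 carries a code for male saline in its description. Its Xist level of 237 TPM and Ddx3y level of 0.318 TPM lie in the range of the female libraries, and it is kept under its label. Without it the count of called histone genes stayed at 0 in each of the 13 contrasts. Male cocaine 67, placebo saline 137 and estradiol cocaine 126 and 134 stand apart. Their median correlation with the other libraries over all genes was 0.892 to 0.928, against 0.943 to 0.968 for the other 36 libraries. Ribosomal protein genes took 19.6% to 31.6% of their TPM, against 7.62% to 17.9% elsewhere. Depth in reads is not in the table. A rough scale from sparse genes puts 1 fragment on a 1000-base transcript at 0.0668 to 0.750 TPM, with a median of 0.266, so values under about 1 TPM rest on few fragments. On a shorter transcript 1 fragment stands for more TPM. For short genes such as Hist1h4k, with 312 bases, values above 1 TPM can also rest on few fragments.

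Hist3h2ba, for which a library-by-library account is given first, is listed as follows. In male saline mice it was 103, 109, 76.0, 105 and 58.7 TPM. In male cocaine mice it was 159.8, 74.1, 62.4, 74.1 and 74.8 TPM, the highest in mouse 67. Males of both treatments overlapped and 1 cocaine library stood above the rest.

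In female saline mice Hist3h2ba was 134, 96.5, 75.9, 72.8 and 66.8 TPM, and in female cocaine mice 90.5, 68.7, 80.0, 60.6 and 66.3 TPM. These groups overlapped. Placebo saline mice had 107, 117, 110.1, 68.4 and 199 TPM, the highest in mouse 137, and placebo cocaine mice had 78.6, 78.1, 95.8, 60.6 and 72.4 TPM. Of the placebo saline mice 4 were above every placebo cocaine mouse. Estradiol saline mice had 74.7, 92.4, 97.7, 54.9 and 81.5 TPM, and estradiol cocaine mice had 239.9, 165, 207, 93.9 and 101 TPM. The groups overlapped through 1 estradiol cocaine mouse, and the highest 2 of the 40 libraries, mice 126 and 134, are both in the estradiol cocaine group.

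As a description, with no test because the gene was chosen for this pattern, the log2 difference of Hist3h2ba between cocaine and saline was 0.93 ± 0.27 (SE) in estradiol females and -0.57 ± 0.27 in placebo females. Over cocaine mice it was 0.98 ± 0.27 between estradiol and placebo, and over saline mice -0.53 ± 0.27. These 4 comparisons share groups, so they are not separate evidence. Without the 4 libraries that stand apart, the difference in estradiol females was 0.56, and with the ribosomal share as a covariate it was 0.45. The ribosomal share was 17.5% ± 9.49 (SD, n = 5) in estradiol cocaine mice, 13.2% ± 3.88 in placebo saline mice and 10.3% ± 1.46 in estradiol saline mice.

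Hist1h4j, an H4 gene at chr13:21735064-21735837 on the plus strand, was above 0 in 6 of 40 libraries. It was 2.33, 1.85 and 3.29 TPM in placebo saline mice 129, 131 and 137. Single libraries of male saline (1.34 TPM, mouse 73), estradiol saline (2.22 TPM, mouse 138) and estradiol cocaine (3.80 TPM, mouse 134) completed the 6. It was listed at 0 in all libraries of male cocaine, female saline, female cocaine and placebo cocaine mice, so no fold can be given against them. On the rough scale above and a 774-base transcript, the 6 values correspond to about 6.78 to 17.0 fragments.

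**Figure D2:**
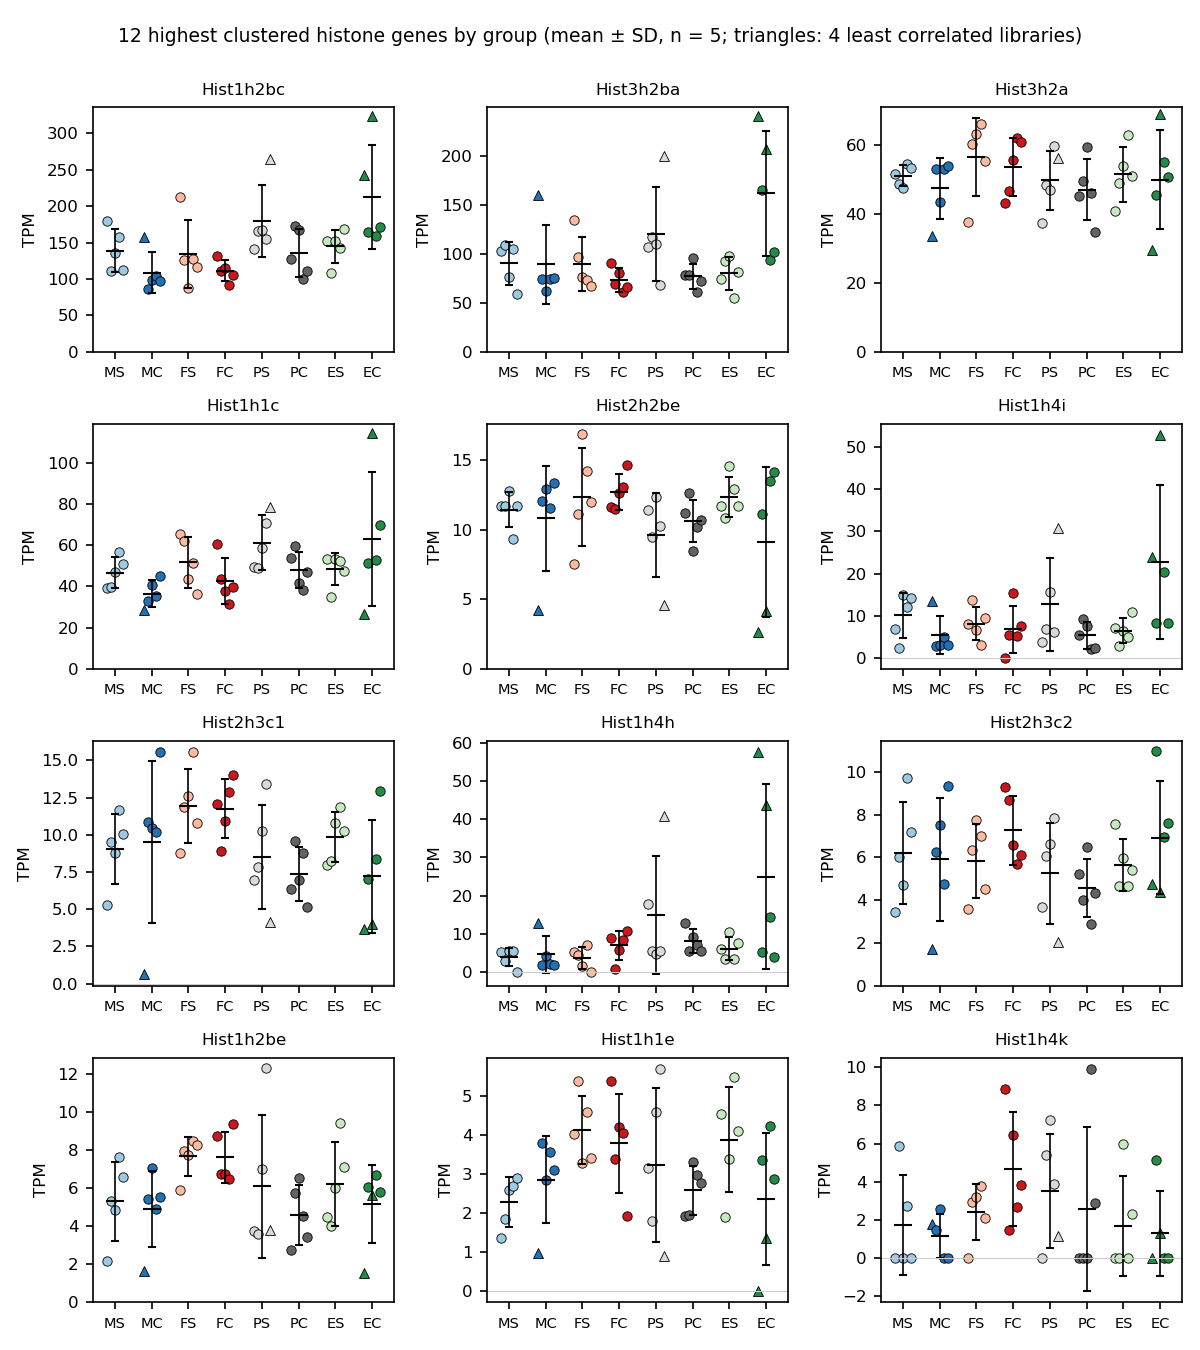
TPM of the 12 highest genes in each library, with mean ± SD (n = 5) per group; MS and MC are males, FS and FC intact females, PS and PC placebo females, ES and EC estradiol females, the second letter giving saline or cocaine. Triangles are the 4 libraries that stand apart, which are high for Hist3h2ba and Hist1h4h and low for Hist2h2be and Hist2h3c1.

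Across the family, no tested histone gene passed the test in any of the 13 contrasts. Of the 40 genes, 31 passed the filter of at least 1 TPM in at least 5 libraries and were tested among 15196 genes with limma on log2(TPM + 0.5), with Benjamini-Hochberg adjustment over all of them and a threshold of 0.05. Among the other 29 genes, without Hist3h2ba and Hist1h4j, the smallest adjusted p was 0.0953 (limma), for Hist1h4i. It lay in cocaine against saline in estradiol females, where the smallest over all genes was 0.0946 (limma). In that contrast 41.7% of all genes had an unadjusted p under 0.05. Fold changes on this scale understate the change of low genes. Over all genes, percent called was 0 in 11 contrasts and 0.0329 in each comparison of the sexes. The joint test for any difference among the 8 groups called 0 histone genes with percent called 0.224, and 3 of the other 29 had an unadjusted p under 0.05 where 23.9% of all genes did.

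Cocaine against saline in intact mice gave no histone gene that passed the test. In males, 0 of the other 29 genes had an unadjusted p under 0.05 in limma, against 1.02% of all genes, and in females 0 of 29, against 0.954%. In males the smallest p belonged to Hist2h2bb, an H2B gene above 0 in 29 libraries, among the genes with a difference above 0 (1.18 ± 0.74) and to Hist1h2bc among those below 0 (-0.36 ± 0.23), both with an adjusted p of 0.99999 in limma. In intact females it belonged to Hist1h4h (1.02 ± 0.75) and to Hist1h4m, an H4 gene above 0 in 19 libraries (-1.19 ± 0.69), both with an adjusted p of 1 in limma. The median log2 difference of the tested histone genes was 0.08 in males, where that of all genes was -0.03, and 0 in females, where that of all genes was 0.03.

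Cocaine against saline in ovariectomized mice, contrasts from which Hist3h2ba and Hist1h4j were picked, is given as values. In placebo females 2 of the other 29 had an unadjusted p under 0.05, where 0.823% of all genes did. They were Hist1h3d, lower with cocaine, and Hist1h3i, higher, and nothing is read from this count. In estradiol females 5 of 29 had one, where 41.7% of all genes did. The higher ones were Hist1h2bc (0.51 ± 0.23), Hist1h4i (1.53 ± 0.64) and Hist1h2bb (1.14 ± 0.51), and the lower ones Hist1h1e (-0.90 ± 0.41) and Hist2h2be (-0.66 ± 0.32).

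The whole table shifted in that contrast. The median of all genes was -0.56 and that of the tested histone genes 0.14, a relative median of 0.69, which was 0.24 with array weights, a fit that weights each library by how closely it follows the model. Hist1h2bc was 243, 165, 324, 159 and 171 TPM in estradiol cocaine mice and 153, 108, 152, 143 and 169 TPM in estradiol saline mice. Mice 126 and 134 lie above every other mouse of either group, while the other estradiol cocaine mice overlap the saline mice. Leaving out 1 library changed the count of called histone genes from 0 to 5 without estradiol cocaine mouse 136, to 3 without mouse 128 or mouse 140, and to 1 without male cocaine mouse 67, with 6122, 3628, 5906 and 2499 genes called over the table, or 40.4%, 23.9%, 38.9% and 16.5%. Each of these counts includes Hist3h2ba.

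Summed markers of other cells are set beside these values. The 4 ependymal markers summed to 27.9 to 262 TPM in estradiol cocaine mice and 24.6 to 84.0 TPM in estradiol saline mice. The 8 blood markers summed to 93.0 to 442 TPM and 89.4 to 325 TPM. The 8 neuroblast markers summed to 30.3 to 151 TPM and 49.8 to 102 TPM, with Dcx above 0 in all libraries. Of the blood markers, S100a8, S100a9, Ngp and Camp were at 0 in some of the 40 libraries. No marker of the ependymal, blood and neuroblast lists was called in this contrast, where percent called over all genes was 0, so nothing is read from that. The part of these cells in the histone values was not tested. In bulk tissue, fewer cells of a type and less RNA per cell cannot be told apart.

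The difference in cocaine response between estradiol and placebo females carries the same groups. Here 5 of the other 29 had an unadjusted p under 0.05, where 31.3% of all genes did, and 0 were called. The values were 1.505 ± 0.38 for Hist3h2ba, given as a description, 0.91 ± 0.32 for Hist1h2bc, 2.54 ± 0.91 for Hist1h4i and -1.10 ± 0.43 for Hist4h4, an H4 gene outside the large clusters. The median of the tested histone genes was 0.32 and that of all genes -0.71. The relative median was 1.03, against 0.46 without the 4 libraries that stand apart and 0.50 with array weights. The corresponding difference between intact females and males had 0 of 29 such genes, where 0.665% of all genes did, with the smallest p for Hist2h3c2 (0.47 ± 0.47) and Hist1h4m (-1.87 ± 0.97).

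Estradiol against placebo gave 2 of the other 29 genes with an unadjusted p under 0.05 in saline mice, where 2.48% of all genes did, namely Hist1h4m (-1.54 ± 0.69) and Hist1h2bb, both lower with estradiol. Among genes with a difference above 0 the smallest p was that of Hist1h3i (0.73 ± 0.51). In cocaine mice it gave 3, where 15.7% of all genes did. Hist1h2bc was 0.62 ± 0.23, Hist1h4i 1.88 ± 0.64 and Hist4h4 -0.68 ± 0.30. Averaged over saline and cocaine there was none among the 29, where 0.783% of all genes did so, with the smallest p for Hist2h3c2 (0.36 ± 0.23) and Hist1h4m (-0.75 ± 0.49). Cocaine averaged over the 4 conditions gave none, where 1.1% did, with the smallest p above 0 for Hist1h2bb (0.44 ± 0.25). Hist1h4j was -0.44 ± 0.26, given as a description because this mean holds contrasts it was picked from.

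**Figure D3:**
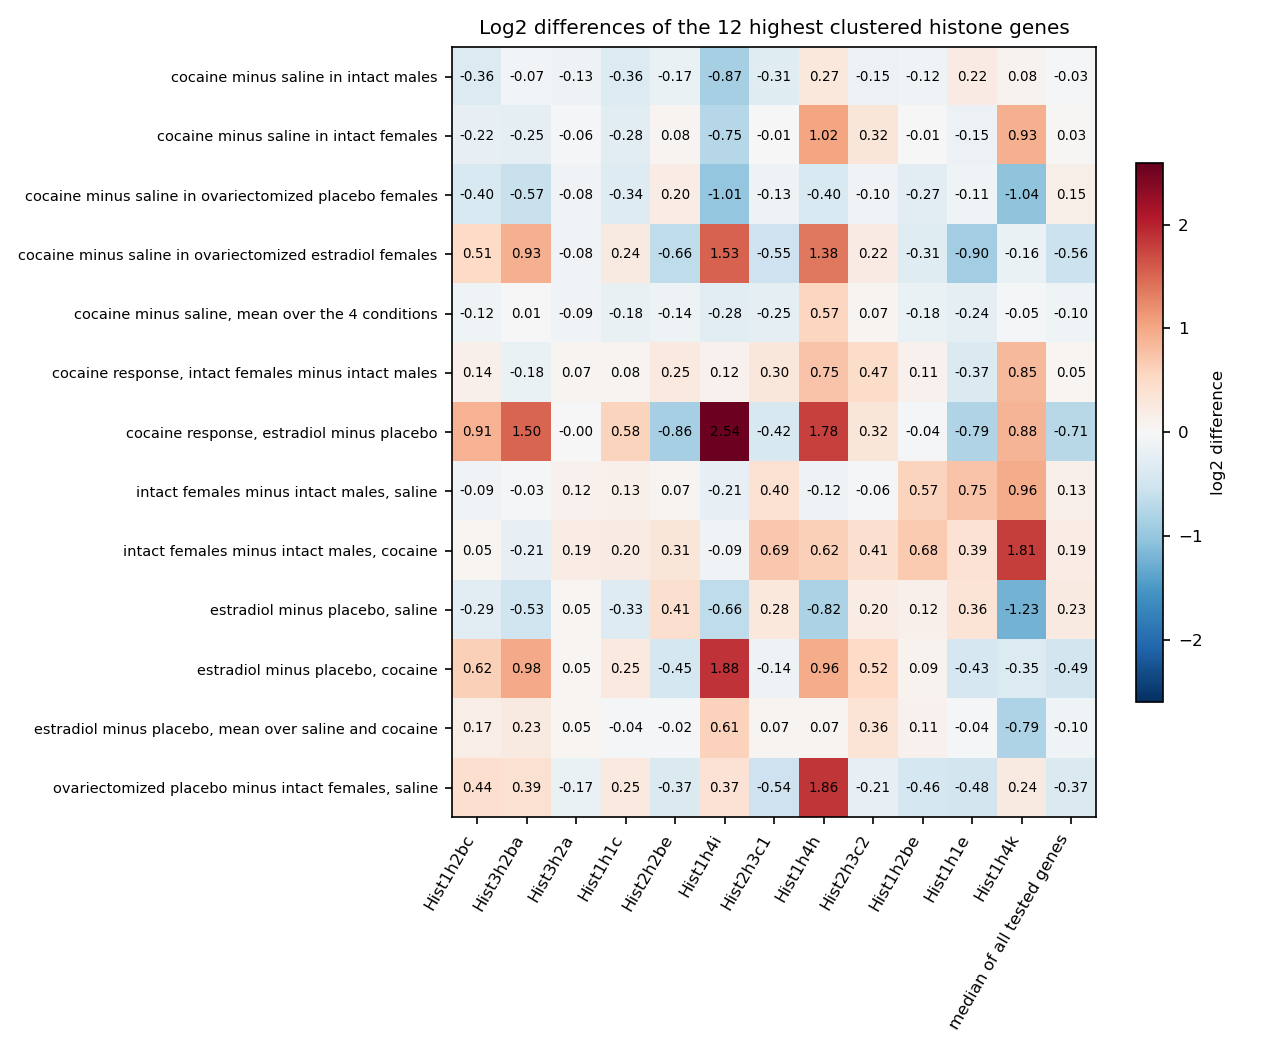
Log2 differences of the 12 highest genes (columns, with the median of all tested genes at the right) in the 13 contrasts (rows); red is higher and blue lower in the group named first. Hist1h4i reaches 2.54 in the difference in cocaine response between estradiol and placebo, where the median of all genes is -0.71.

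Females against males is a comparison that played no part in the choice of the genes. In saline mice Hist1h1e, a linker histone gene at chr13:23620629-23622558, was 4.02, 5.39, 3.28, 4.61 and 3.41 TPM in females and 1.38, 1.85, 2.61, 2.70 and 2.91 TPM in males. Every female library lay above every male library, which held for no other tested histone gene in this comparison and for 0.592% of all genes. The difference was 0.75 ± 0.41 and was not called (limma, adjusted p = 0.996). The ribosomal share, with which this gene fell in the fit within groups, was 9.04% ± 2.69 (SD, n = 5) in these females and 11.1% ± 4.07 in these males, and its part in the difference was not tested. In cocaine mice the ranges overlapped, at 5.39, 3.41, 4.22, 4.06 and 1.92 TPM in females and 0.981, 3.81, 2.85, 3.58 and 3.12 TPM in males, with a difference of 0.39; the library labelled male cocaine 69 gave the 2.85 TPM. No histone gene had an unadjusted p under 0.05 in either comparison, where 1.41% and 1.36% of all genes did. The smallest p in saline mice belonged to Hist1h4m (1.38 ± 0.69) and Hist1h4f (-0.67 ± 0.68), and in cocaine mice to Hist1h2be (0.68 ± 0.35) and Hist2h2bb (-1.05 ± 0.74).

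Ovariectomized placebo females were also compared with intact females, both given saline. Hist1h4j was listed at 0 in all intact females, so its difference here rests on the same placebo saline values as the contrast it was picked from, and it is left out. Of the other 29 genes 4 had an unadjusted p under 0.05, where 19.3% of all genes did. Higher were Hist1h4h (1.86 ± 0.75), Hist1h4c (2.17 ± 0.90) and Hist1h4d (1.88 ± 0.83), where 2.43% of all genes were, and lower was Hist4h4 (-0.80 ± 0.30), where 16.8% were. None passed the adjustment, where percent called was 0, and the adjusted p of Hist1h4h was 0.247. Hist1h4h was 17.9, 5.40, 4.56, 5.42 and 40.8 TPM in placebo mice and 5.27, 4.36, 1.47, 7.09 and 0 TPM in intact mice, so the groups overlap and 2 placebo mice lie above every intact mouse.

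The median of the tested histone genes in that comparison was 0.25 and that of all genes -0.37. The 4 endothelial markers summed to 62.0 to 165 TPM in placebo saline mice and 122 to 203 TPM in intact saline females, and the 8 blood markers to 106 to 335 TPM and 102 to 158.5 TPM. The part of these cells in the histone values was not tested. With array weights 7 of 31 histone genes were called, where 44.8% of all genes were.

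By group, the summed level of the 68 listed genes was 595 TPM ± 170 (SD, n = 5) in estradiol cocaine mice and 504 TPM ± 132 in placebo saline mice, against means of 344 to 406 TPM in the other 6 groups. H2B made most of the difference, with 395 TPM ± 116 in estradiol cocaine mice and 251 TPM ± 25.6 in estradiol saline mice. Hist3h2ba, picked for this contrast, is part of these sums, with means of 161 TPM and 80.2 TPM in these groups. The sums are therefore a description and not separate from that choice. H4 was 61.9 TPM ± 42.6 and 21.1 TPM ± 10.2 in the same groups. H2A was 53.5 TPM ± 15.6 and 54.7 TPM ± 8.28, H3 was 16.04 TPM ± 6.80 and 16.4 TPM ± 1.38, and H1 was 66.3 TPM ± 33.2 and 53.2 TPM ± 9.37. The means of H2A, H3 and H1 in these groups differed by less than 1 SD of the estradiol cocaine mice, whose SD exceeded that of estradiol saline mice in each class.

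Wide differences within the family lay between libraries of the same group. The 4 libraries that stand apart were picked by their correlation over all genes. The share of all genes that set them apart from the other 36 was not counted, so nothing particular to histone genes is read from these values. In male cocaine 67, placebo saline 137, estradiol cocaine 126 and estradiol cocaine 134, in this order, Hist1h4h was 12.8, 40.8, 57.8 and 43.8 TPM, while the other 36 libraries ranged from 0 to 17.9 TPM. Hist1h4i was 13.3, 30.8, 23.9 and 53.0 TPM against 0 to 20.4 TPM. Hist1h2bc was 157, 265, 243 and 324 TPM against 86.0 to 212 TPM. For each of these H4 and H2B genes, and for Hist3h2ba, 3 of the 4 libraries lay above all 36.

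Other members of the family were low in the same 4 libraries. Hist2h2be was 4.19, 4.61, 2.61 and 4.12 TPM against 7.52 to 16.9 TPM in the other 36. Hist2h3c1, a source of H3, was 0.617, 4.11, 3.66 and 4.02 TPM against 5.13 to 15.6 TPM. Hist1h1e was 0.981, 0.915, 0 and 1.37 TPM against 1.38 to 5.71 TPM. All 4 libraries lay below all 36 for these 3 genes, so in the same library some histone genes were high and others low. Hist3h2a, at 33.5, 56.2, 29.4 and 69.0 TPM against 34.7 to 66.1 TPM, and Hist1h1c, at 28.3, 78.8, 26.4 and 115 TPM against 31.4 to 70.9 TPM, lay on both sides.

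**Figure D4:**
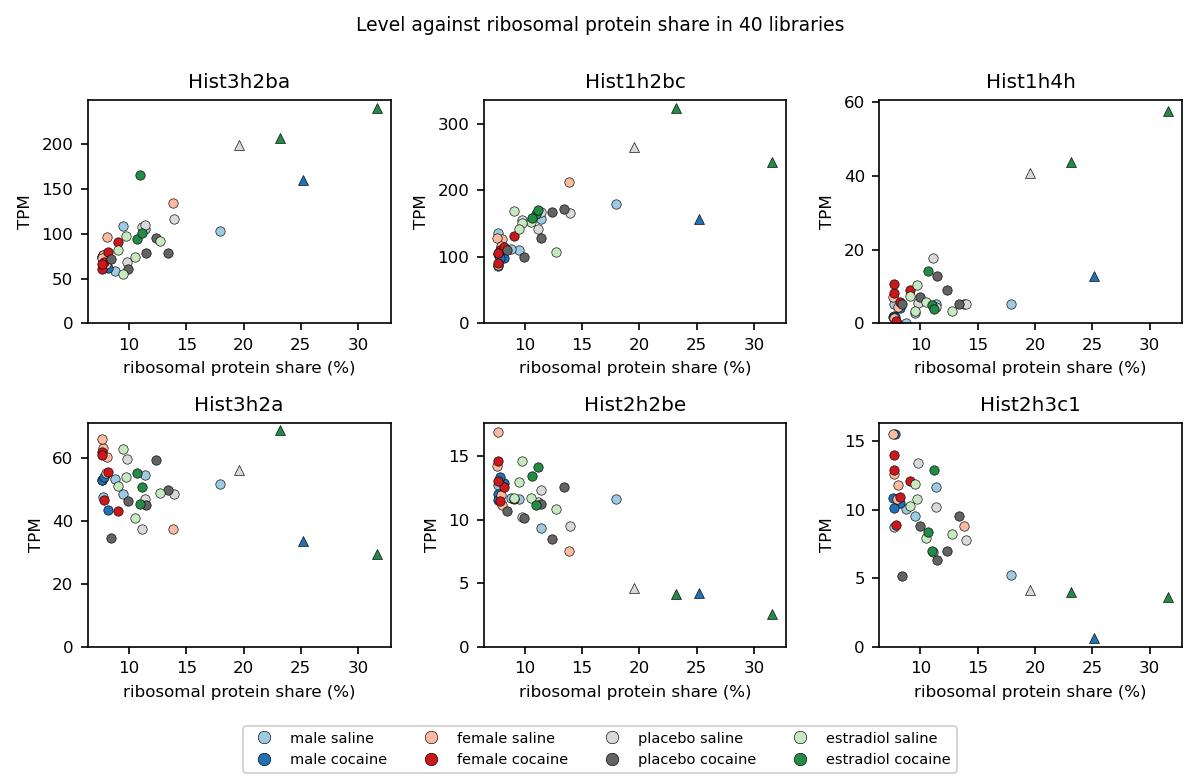
TPM of 6 histone genes against the share of TPM taken by ribosomal protein genes, for 40 libraries coloured by group, with triangles for the 4 that stand apart. Hist3h2ba, Hist1h2bc and Hist1h4h are high at high shares, Hist2h2be and Hist2h3c1 are low, and Hist3h2a lies on both sides.

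A slope per 10 percentage points of the ribosomal share was fitted for every gene with the 8 group means in the model, so that it rests on differences among mice of 1 group. This fit was chosen after seeing the data. Called higher were 5 of 31 histone genes, where percent called was 7.23, and called lower were 8, where it was 78.7. The median slope of all genes was -0.77 on the log2 scale against -0.29 for the tested histone genes.

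The 5 genes that rose were H4 and H2B genes. Hist1h4h rose by 1.51 ± 0.37 (SE) per 10 points, Hist1h4f, an H4 gene above 0 in 6 libraries, by 1.04 ± 0.35, and Hist1h4i by 0.82 ± 0.37. Hist3h2ba rose by 0.67 ± 0.10 and Hist1h2bc by 0.49 ± 0.09 (limma, adjusted p = 4.19e-06 for Hist1h2bc). Because Hist3h2ba was picked from values of these same libraries, its slopes and calls here and below are a description. Each count of genes called higher in these fits includes it. Without the 4 libraries that stand apart, Hist3h2ba rose by 0.83 ± 0.23 and Hist1h2bc by 0.78 ± 0.19, both called, while Hist1h4h at 1.04 ± 0.93 and Hist1h4i at -0.17 ± 0.88 were not. In that fit 2 of 28 histone genes were called higher and 6 lower, where 7.32% and 51.1% of all genes were. Among intact libraries 2 of 23 were called higher and 8 lower, where 6.94% and 74.6% were, and among ovariectomized libraries 4 of 27 and 6, where 6.03% and 75.2% were. Among intact libraries the slope of Hist3h2ba was 0.70 ± 0.12 and among ovariectomized libraries 0.65 ± 0.14. Hist1h4f did not pass the filter in any of these smaller fits and has no slope there.

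The 8 genes that fell came from all 4 clusters. Hist1h2bg, an H2B gene listed at 0 in some libraries, fell by 1.37 per 10 points, Hist1h1e by 1.12, Hist2h3c1 by 1.10 and Hist2h2be by 0.91. Hist1h2be fell by 0.79, Hist2h3c2 by 0.69, Hist4h4 by 0.50 and Hist3h2a by 0.22. Without the 4 libraries that stand apart, Hist2h2be at -0.41 ± 0.19 (limma, adjusted p = 0.0624), Hist2h3c2 at -0.51 ± 0.33 (0.181) and Hist3h2a at -0.20 ± 0.20 (0.401) were not called. Among ovariectomized libraries Hist3h2a at -0.13 ± 0.15 and Hist4h4 at -0.34 ± 0.21 were not called. In the Hist3 cluster Hist3h2ba was called higher in each of these fits, and its neighbour Hist3h2a was called lower over all and over intact libraries.

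The slope of all genes differed by the length of the annotated transcript. Its median was 0.42 for 393 genes of at most 750 bases, 0.03 from 750 to 1500 bases, -0.48 from 1500 to 2500 bases, -0.80 from 2500 to 4000 bases and -0.99 above that. The 5 histone genes that rose had a median length of 614 bases (391 to 1156), and the 8 that fell one of 2038 bases (618 to 2863). Hist3h2ba with 614 bases and Hist1h2bc with 1156 bases lie above the median of their length class, and so does Hist3h2a with 2146 bases. The family's short genes did not all follow the class: of the 16 tested with at most 750 bases 6 had a slope above 0, where 69.2% of all genes of that length did. The part of length, RNA quality or library preparation in these slopes was not tested.

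**Figure D5:**
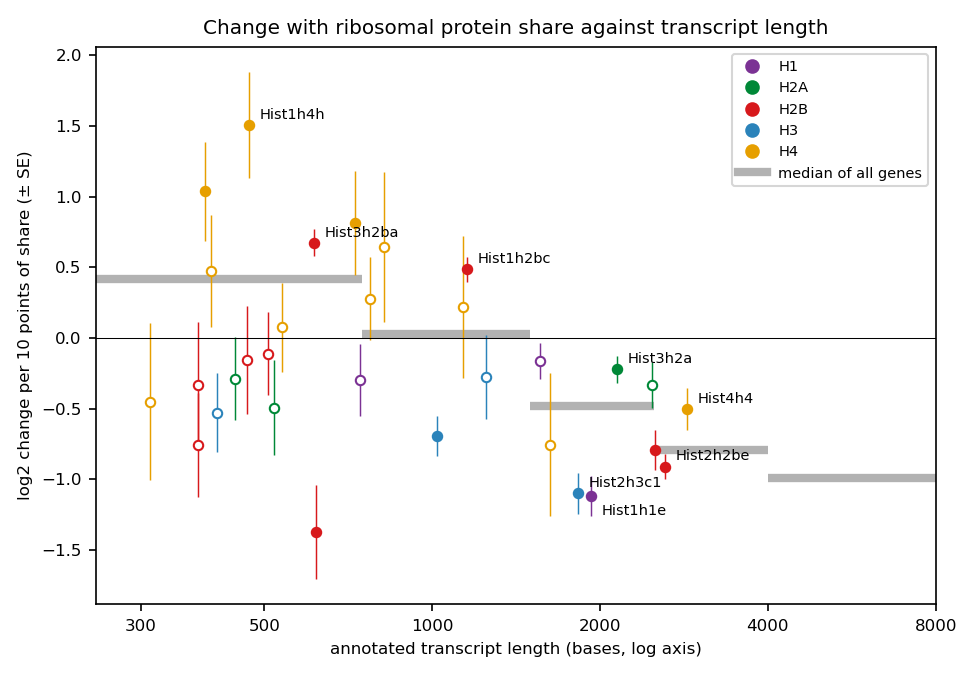
Log2 change per 10 points of ribosomal share (± SE) against annotated transcript length on a log axis for the 31 tested histone genes, filled where called; grey bars are the medians of all genes per length class, the outer classes drawn to the edges of the plot. Hist3h2ba and Hist1h2bc lie above the bar of their class, at slopes of 0.67 and 0.49.

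Promoters of the family were compared with those of all genes in RefSeq's table (GRCm38.p6), in the 250 bases before the start and on both strands. The letters CCAAT stood in 73.5% of the 34 kept genes with an entry and 34.5% of 27025 promoters, the TATA box letters TATAAA in 58.8% and 12.97%, and ATTTGCAT, the octamer, in 20.6% and 1.61%. These windows of the 2 protein-coding Hist3 neighbours are shown because they are neighbours whose slopes over all libraries were 0.67 and -0.22. Capitals mark these letters or their complements.
Hist3h2ba: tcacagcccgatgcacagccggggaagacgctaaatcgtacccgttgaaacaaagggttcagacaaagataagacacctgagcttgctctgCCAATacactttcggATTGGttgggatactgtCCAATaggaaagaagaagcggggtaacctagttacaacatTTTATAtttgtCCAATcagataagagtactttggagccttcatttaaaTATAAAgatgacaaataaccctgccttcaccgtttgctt
Hist3h2a: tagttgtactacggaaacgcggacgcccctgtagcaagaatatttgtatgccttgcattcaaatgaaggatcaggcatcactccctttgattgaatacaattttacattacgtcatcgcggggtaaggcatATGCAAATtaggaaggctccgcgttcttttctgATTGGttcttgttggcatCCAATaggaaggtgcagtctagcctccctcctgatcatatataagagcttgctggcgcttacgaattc
The first is chr11:58948661-58948910 and the second chr11:58954435-58954684, both on the plus strand. The Hist3h2ba window holds CCAAT 4 times and TATAAA 2 times, and that of Hist3h2a holds CCAAT 2 times and ATTTGCAT 1 time. A match is a description of the letters, not a site of binding.

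Genes that act on histones were read from fixed lists. Tested were 15 genes for the 3′ end of histone messages and their cell cycle factors and 14 histone chaperones. Also tested were 22 S phase and proliferation genes and 11 variant histone genes. None was called in the 13 contrasts (limma). Percent called over all genes was 0.0329 in each comparison of the sexes and 0 in every other contrast, so nothing is read from this. In estradiol females, cocaine against saline, 10, 9, 4 and 2 genes of these lists, in this order, had an unadjusted p under 0.05. Over all genes 41.7% did. Among the variant histones H2afj, an H2A gene outside the clusters, was 0.62 ± 0.22 and H3f3b -0.47 ± 0.23, with adjusted p of 0.0946 and 0.119 (limma). The S phase list summed to 89.0 to 283 TPM in estradiol cocaine mice and 162 to 247 TPM in estradiol saline mice.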

How the data were processed

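RNA from nucleus accumbens punches of 40 mice was sequenced; per the labels' protocols the kit was AmpliSeq Library PLUS and all samples ran in 1 lane. The authors' deposited table is named FPKM, but each of its 40 columns sums to 1000000, so its values are TPM. The genome build named is mm10 and the tools named are limma, DESeq2, Cuffdiff 2.2.0, Cufflinks 2.2.0, TopHat2 2.0.9 and Bowtie2 2.1.0.0, per the submitters' processing notes; which of them made the table is not given in the sources used here. Groups came from the sample titles. Of 23349 entries, 27 bear a date for a name and were left out. The labels put 9400000 reads on a sample and join to it, by a plus sign left unexplained, a second figure of 4700000. Because TPM keeps no read counts, the reads behind a single library cannot be given, nor a counting interval.

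The 15196 genes at 1 TPM or more in 5 or more libraries were fitted as log2(TPM + 0.5) with limma 3.58.1 (trend, robust) in R 4.3.3, with 8 group means, 32 residual degrees of freedom and 13 contrasts. P-values were adjusted by Benjamini-Hochberg over all of them; errors on log2 values are SE. Nothing in the labels tells litters or batches apart, so p-values measure the spread between these mice. Simulated data with known changes were run through the same fit. The ribosomal share sums 84 ribosomal protein genes. Alternatives were other pseudocounts (0.1, 1), no filter, a minimum of 5 TPM, separate fits of intact or ovariectomized mice, median centring, the ribosomal share as covariate, array weights, leaving out the 4 libraries that stand apart, and leaving out each library.

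Named were Hist3h2ba and Hist1h4j, the 12 highest genes, the highest of each class per cluster, those with the smallest p in each direction per contrast, those called and those at the limit of the rule; others named at an unadjusted p under 0.05 were picked after their values were seen. The members and lists were chosen with earlier results of these data known.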

Additional observations from a re-analysis of the deposited data

Results flagged for a closer look

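Among the 12 highest genes in 8 groups of 5, 96 sets of values, 9 held 1 library far from the other 4 by Dixon's 95% value. Chance gives about 1 in 20 for independent sets of normal values. The 96 sets share libraries, so no excess is read from the 9 flags. Of the 9, 7 were libraries that stand apart over all genes. Male cocaine 67 was high for Hist1h2bc (157 TPM, others 86.0 to 105), Hist3h2ba (159.8 TPM, others 62.4 to 74.8), Hist1h4i (13.3 TPM, others 2.67 to 4.91) and Hist1h4h (12.8 TPM, others 1.69 to 4.24). It was low for Hist2h2be (4.19 TPM, others 11.5 to 13.4). Placebo saline 137 was high for Hist1h2bc (265 TPM, others 141 to 168) and estradiol cocaine 126 low for Hist1h2be (1.57 TPM, others 5.65 to 6.67). Hist1h4k, an H4 gene listed at 0 in many libraries, was high in placebo cocaine 135 (9.92 TPM, others 0 to 2.87) and estradiol cocaine 128 (5.13 TPM, others 0 to 1.33).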

How the results depend on the processing

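The counts of called histone genes stayed at 0 in 11 of the 13 contrasts under every alternative run. With array weights, 14 of 31 histone genes were called for any difference among the 8 groups, where 60.1% of all genes were, and 7 in ovariectomized placebo against intact females, where 44.8% were. Leaving out 1 library gave 0 to 3 for any difference (3 without male cocaine 67, where 25.7% of all genes were called, and 1 without female saline 64, where 2.8% were) and 0 to 5 for cocaine in estradiol females. The histone genes higher with the ribosomal share numbered 2 without the 4 libraries that stand apart and 2 in intact mice. The relative median moved with array weights to 0.24 for cocaine in estradiol females and to 0.50 for the difference in cocaine response between estradiol and placebo, and to 0.46 for the latter without the 4 libraries; the cause was not tested. Among single genes, Hist3h2ba in cocaine against saline in estradiol females ranged from 0.42 to 1.54 over the alternatives. It was picked for this pattern and the alternatives reuse the same libraries, so its constant direction is only a description. Hist1h1e ranged from -1.37 to -0.09 in that contrast, without a change of direction. The slope of Hist1h4i on the ribosomal share did change direction, from 0.82 over all libraries to -0.17 without the 4 libraries. Median shifts near 0 are not called either way. No paired analysis was possible because the groups share no animal numbers. Depth per library is not in the table. Genes under 1 TPM rest on few fragments, and low values above 1 TPM can do so for the shortest transcripts.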
